A study of Mus musculus with 4 samples.

Results

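The genes described here are 10 genes of the actin cytoskeleton of retinal microglia: the cytoplasmic actins Actb and Actg1, the actin turnover proteins Cfl1, Pfn1 and Tmsb4x, and the Arp2/3 complex subunits Arpc1b, Arpc2, Arpc3, Arpc4 and Arpc5. They were selected on their FPKM in the 4 libraries described here, with the difference between the groups known, and were found by gene symbol: all 10 were among the 15586 genes of the table. The RNA came from microglia, the immune cells that live in the retina, sorted on EYFP at 200 cells per library from mice aged 2 months. The TAK1 knockout group (2 libraries) came from mice given intraperitoneal tamoxifen at 75 mg/kg on 5 consecutive days, and the control group (2 libraries) from mice given corn oil on the same schedule. Mice of both groups carried a tamoxifen-inducible Cre at 1 Cx3cr1 allele (Cx3cr1CreER/+), which acts in microglia and other Cx3cr1-expressing myeloid cells, and, per the treatment protocol, Tak1fl/fl alleles. The genotype label of the knockout libraries reads Tak3fl/fl. Tamoxifen was given to the knockout group only, so drug and deletion cannot be told apart. The labels do not say that libraries came from separate animals, so the spread between libraries may be technical.

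Actin monomers join into filaments that push the cell membrane forward, and microglia use this for moving their processes, for migration and for engulfing debris. Profilin loads monomers for growth, thymosin beta-4 holds monomers in reserve, and cofilin cuts old filaments and frees monomers. The Arp2/3 complex, built of the actin-related proteins Arp2 and Arp3 and of smaller subunits called ARPC, starts new branches on the side of existing filaments when WASP or WAVE proteins activate it.

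Values are FPKM, fragments scaled to transcript length and library size, so levels can be compared between genes, and the depth of each library is unknown. Summed FPKM ran from 812009 to 823229 in the knockouts and from 863652 to 969700 in the controls. Of the 7823 genes tested, 32.1% had over 90% of their summed FPKM in a single library, but none of the 10 genes did. No library gave any of them less than 83.51 FPKM, and 695 of the 15586 genes were at or above that level in all 4 libraries. Map3k7, the gene that encodes TAK1, read 0.02 and 0.08 FPKM in the knockouts and 0.03 and 0 FPKM in the controls, too low to check the labels. All 12 microglia markers were in the table. In 8 of the 12 the knockouts were the higher group without overlap, in 1 the lower, where 27.8% and 11.4% of all tested genes stood. Gpr34 read 1862 and 1154 FPKM in the knockouts and 927 and 481 FPKM in the controls, and P2ry12 read 1794 and 829.5 FPKM in the knockouts and 569 and 790.3 FPKM in the controls. In a library of sorted cells, fewer cells of a type and less RNA per cell cannot be told apart.

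The 10 genes did not differ in 1 direction. In 3 of them, Actb, Actg1 and Tmsb4x, the knockout libraries were both under the controls, in Cfl1, Pfn1 and Arpc4 both were over them, and the groups overlapped in Arpc1b, Arpc2, Arpc3 and Arpc5. Among all tested genes, 11.4% lay below and 27.8% above both controls, and among the 1177 genes averaging 100 FPKM or more, 26.5% lay below and 19% above. Among the 134 genes averaging 1000 FPKM or more the shares were 35.8% and 14.9%. The genes were chosen with this comparison known, so these counts, and all their differences between groups, are a description. The 10 were fitted with all other genes, but no p-value of theirs is given or used. Their median log2 fold change, knockout minus control on the log2(FPKM + 1) scale, was -0.08, against 0.94 over all tested genes and -0.11 over those averaging 100 FPKM or more. Set against the median of -0.11, Actb stood at -1.57, Actg1 at -0.68, Tmsb4x at -0.10, Pfn1 at 1.04 and Cfl1 at 1.63. With control 1 left out, the median of the 10 was -0.30, and 6 of them lay below the single control that remained. The share over all genes was not computed there. With control 2 left out the median of the 10 was 0.26. The 10 genes held 5.85% and 6.58% of the summed FPKM in the knockouts and 6.75% and 7.87% in the controls, and Tmsb4x held most of that. Without Tmsb4x the shares were 0.93% and 1.36% in the knockouts and 1.78% and 2.38% in the controls.

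**Figure D1:**
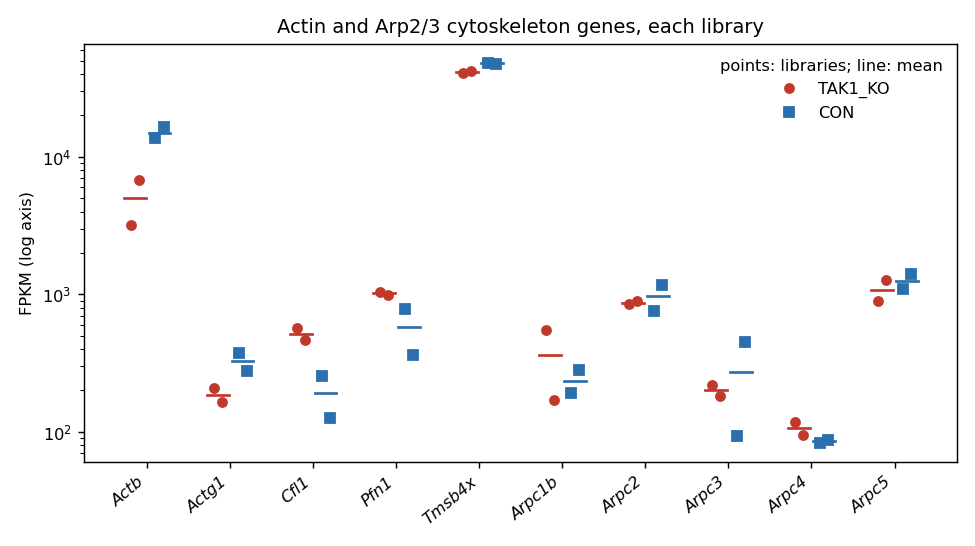
FPKM of each of the 10 genes (log axis) in each library, with knockouts as red circles to the left of controls as blue squares and a line at each group mean. Actb, Actg1 and Tmsb4x have both knockout libraries below both controls, Cfl1, Pfn1 and Arpc4 have both above, and the other 4 genes overlap.

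Beta-actin and gamma-actin, encoded by Actb and Actg1, are the 2 actins of non-muscle cells. Actb (chromosome 5, 142903115 to 142907976) read 3206 and 6804 FPKM in knockouts 1 and 2, against 13618 and 16423 FPKM in controls 1 and 2. The knockout mean was 0.333 of the control mean, with 5005 ± 2544 FPKM in knockouts and 15021 ± 1984 FPKM in controls (SD, n = 2 each). Both knockouts stood well below both controls, and they differed from each other 2.12-fold, more than the controls did (1.21-fold). Ranked by FPKM within its library, Actb was 26th and 11th in the knockouts and 6th in each control. Actg1 (chromosome 11, 120345687 to 120348495) read 208 and 165 FPKM in the knockouts against 372 and 279 FPKM in the controls. The groups did not overlap, and the knockout mean was 0.573 of the control mean. On the log2 scale Actb differed by -1.68 and Actg1 by -0.79, in both cases more than the gap between replicates of either group. Both kept their sign under every scaling. Leaving out a library could not turn it, because the groups did not overlap. Actb exceeded Actg1 in every library, by 15.4 and 41.3 times in the knockouts and 36.6 and 58.9 times in the controls. That ratio overlapped between the groups. The longest coding transcripts of the 2 genes are 87.8% identical over 1186 aligned bases. Also, 5 annotated pseudogenes match Actg1 at 95% or more over at least 200 bases, so how reads were divided among these copies is uncertain. The same uncertainty holds for Cfl1, Arpc1b and Arpc2, which have 1 such pseudogene each.

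The genes that manage actin monomers and filament ends lay on both sides of the controls. Cfl1 (chromosome 19, 5490455 to 5494031), cofilin, read 565 and 468 FPKM in the knockouts against 256 and 125 FPKM in the controls. The groups did not overlap, with a mean of 517 ± 68.5 FPKM in knockouts and 191 ± 92.2 FPKM in controls (SD, n = 2 each), a ratio of 2.71. Pfn1 (chromosome 11, 70651844 to 70656799), profilin, read 1047 and 989 FPKM in the knockouts against 788 and 360 FPKM in the controls. Both knockouts were above both controls, but the controls differed 2.19-fold between themselves, and the log2 difference of 0.93 was smaller than their gap of 1.13. Tmsb4x (chromosome X, 167207093 to 167213479), thymosin beta-4, read 40538 and 42376 FPKM in the knockouts against 48224 and 47421 FPKM in the controls. It was the most abundant of all 15586 transcripts in 3 libraries and the second in control 1. The knockout mean was 0.867 of the control mean. This was a small difference between tight replicates (1.05-fold apart in knockouts and 1.02-fold in controls). Its sign turned after quantile normalization (log2 0.33), and with libraries rescaled to the same sum the log2 difference was -0.04.

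Within a library, the ratio of 2 genes does not depend on scaling between libraries. Cfl1 stood at 0.176 and 0.0688 of Actb in the knockouts, against 0.0188 and 0.00763 in the controls. Pfn1 stood at 0.327 and 0.145 of Actb in the knockouts, against 0.0579 and 0.0219 in the controls. Tmsb4x was 12.6 and 6.23 times Actb in the knockouts and 3.54 and 2.89 times in the controls. All 3 ratios to Actb were higher in both knockouts than in both controls. They share Actb, which was lower in both knockouts, so they restate the values above and are not separate results. Tmsb4x was 38.7 and 42.8 times Pfn1 in the knockouts and 61.2 and 132 times in the controls. This ratio between the monomer-holding and the monomer-loading protein's transcripts lay lower in both knockouts, which follows from the values of both genes.

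**Figure D2:**
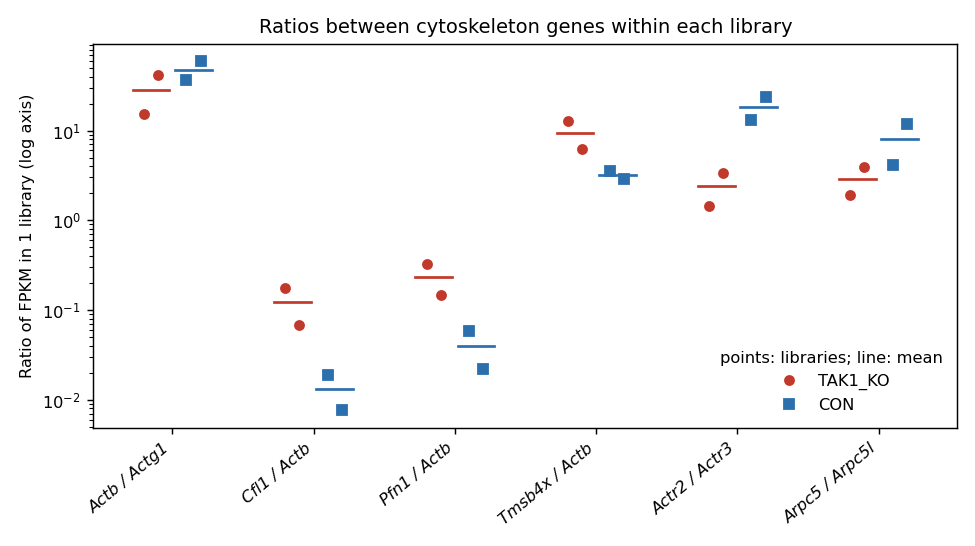
Ratio of FPKM between 2 genes within each library (log axis), with knockouts as red circles to the left of controls as blue squares and a line at each group mean. Cfl1, Pfn1 and Tmsb4x relative to Actb lie higher in both knockouts, Actr2 relative to Actr3 and Arpc5 relative to Arpc5l lie lower, and Actb relative to Actg1 overlaps.

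Of the Arp2/3 subunits among the 10 genes, Arpc4 alone had groups that did not overlap. Arpc4 (chromosome 6, 113378113 to 113390447), the subunit that with Arpc2 forms the core of the complex, read 118 and 94.99 FPKM in the knockouts against 83.5 and 87.4 FPKM in the controls. Its log2 difference of 0.31 was about the size of the gap between the knockouts (0.31), and after median ratio scaling it was -0.57. Arpc2 (chromosome 1, 74236490 to 74268209), the other core subunit, read 849 and 887 FPKM in the knockouts and 762 and 1174 FPKM in the controls, so the knockouts lay between the controls. Arpc3 (chromosome 5, 122391878 to 122406181), a smaller peripheral subunit, read 217 and 183 FPKM in the knockouts and 93.6 and 451 FPKM in the controls. The controls differed 4.82-fold and the knockouts lay between them. Arpc5 (chromosome 1, 152766542 to 152775580), which anchors Arp2 to the complex, read 892 and 1265 FPKM in the knockouts and 1102 and 1407 FPKM in the controls. Arpc1b (chromosome 5, 145114256 to 145128186), the form of the ARPC1 subunit that is prominent in blood cells, read 552 and 169 FPKM in the knockouts and 192 and 279 FPKM in the controls. Knockout 1 was above and knockout 2 below both controls. The 5 ARPC genes together summed to 2627 and 2600 FPKM in the knockouts, inside the range of 2233 and 3399 FPKM in the controls.

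The rest of the complex showed a wider contrast between its 2 actin-related subunits. Actr2, which encodes Arp2, read 444 and 1392 FPKM in the knockouts against 2419 and 3070 FPKM in the controls. Actr3, which encodes Arp3, read 307 and 408 FPKM in the knockouts against 184 and 128 FPKM in the controls. Actr2 therefore exceeded Actr3 by 1.45 and 3.41 times in the knockouts, against 13.1 and 23.9 times in the controls. Neither gene passed limma's moderated test across all genes (log2 -1.79, SE 0.57, adjusted p = 0.562 for Actr2, and log2 1.20, SE 0.68, adjusted p = 0.698 for Actr3). Both kept their sign under every scaling, and leaving out a library could not turn it, as neither gene overlapped between groups. Arpc5l, the alternative form of ARPC5, read 465 and 323 FPKM in the knockouts against 270 and 119 FPKM in the controls (limma adjusted p = 0.698), and Arpc5 exceeded it by 1.92 and 3.91 times in the knockouts against 4.08 and 11.8 times in the controls. Arpc1a read 2.11 and 1.42 FPKM in the knockouts and 59.2 and 0.45 FPKM in the controls, so Arpc1b was the more abundant form in all 4 libraries. Gmfg, an inhibitor that takes branches apart, read 125 and 178 FPKM in the knockouts and 138 and 203 FPKM in the controls. Of 10 tested genes of these other subunits and direct inhibitors, 3 lay above both controls and 1 below, where 27.8% and 11.4% of all tested genes stood. The median log2 fold change of the 10 was 0.30. That median was -0.51 without knockout 2, -0.31 without control 2, 0.92 without knockout 1 and 1.32 without control 1, and -0.41 after median ratio scaling and -0.69 after quantile normalization. Actr2 took 11.6% and 29.5% of the summed FPKM of 9 subunits in the knockouts and 46.8% and 45.7% in the controls.

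**Figure D3:**
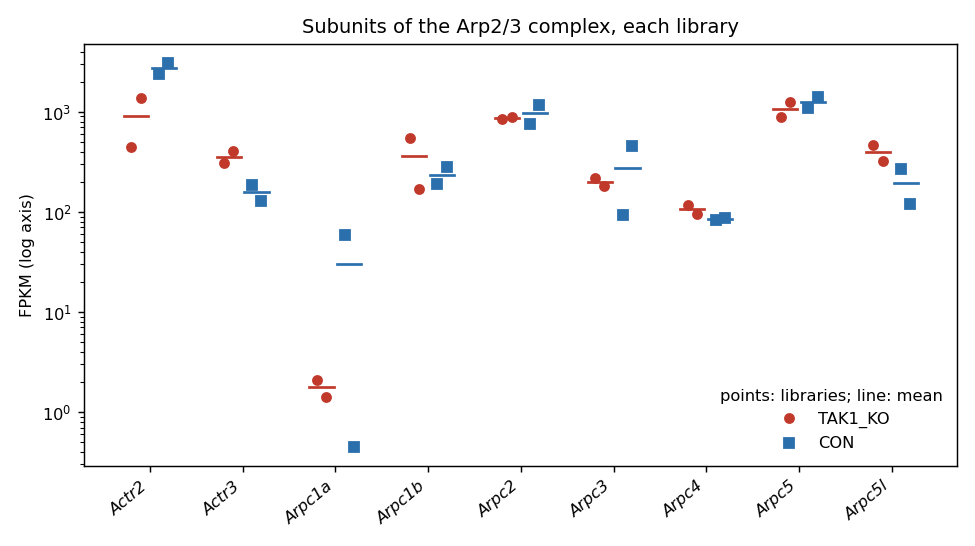
FPKM of 9 subunits of the Arp2/3 complex (log axis) in each library, with knockouts as red circles to the left of controls as blue squares and a line at each group mean. Actr2 lies lower and Actr3, Arpc4 and Arpc5l higher in both knockouts than in both controls, while Arpc1a, Arpc1b, Arpc2, Arpc3 and Arpc5 overlap.

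By level, Tmsb4x came first and Actb second in both groups, and the ranges of each stood clear of the next gene. Arpc5, Pfn1 and Arpc2 followed in the knockouts, where Arpc5 overlapped Pfn1, and Arpc5, Arpc2 and Pfn1 in the controls. Cfl1 was 6th of 10 in the knockouts and 9th in the controls. The middle of the order was not resolved: in the knockouts Cfl1 overlapped Arpc1b, Arpc1b overlapped Arpc3, and Arpc3 overlapped Actg1, and in the controls each neighbour from Arpc5 down to Cfl1 overlapped the next. Arpc4 was the least abundant in both groups.

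**Figure D4:**
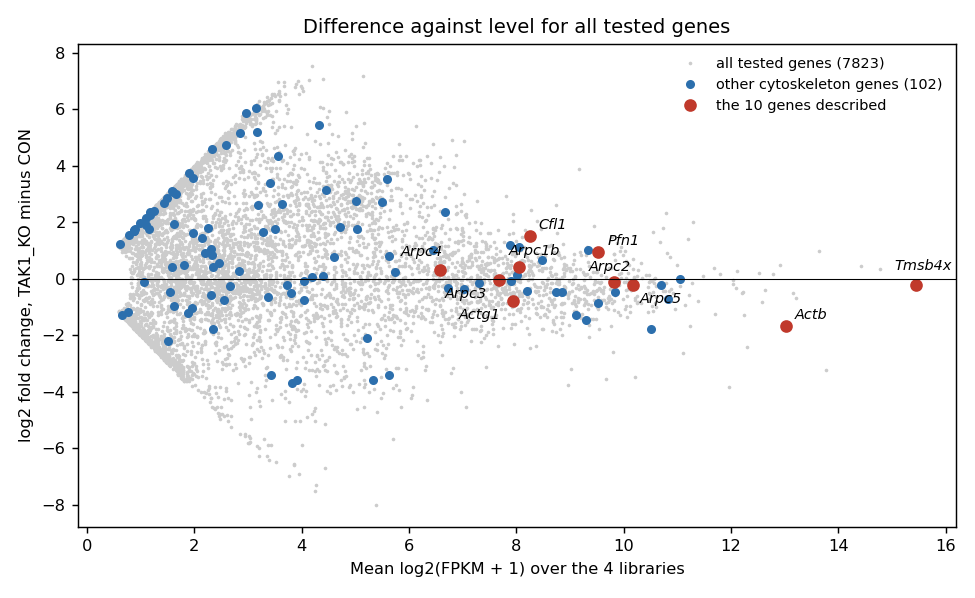
Log2 fold change, knockout minus control, against the mean log2(FPKM + 1) over the 4 libraries for all 7823 tested genes (grey), 102 other cytoskeleton genes (blue) and the 10 genes described (red). The 10 genes sit at the high end of the level axis, from Cfl1 at 1.52 to Actb at -1.68, while the large positive differences of other cytoskeleton genes are at low levels.

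Promoter sequences of 9 of the 10 genes were matched in RefSeq (GRCm38.p6, the assembly behind mm10), Actb having no entry. The windows ran from 250 bases before the transcript start to 50 after it. The CArG box (CC, 6 bases that are each A or T, then GG), the element bound by serum response factor, which drives many actin genes, was searched on both strands and found in 2 of the 9 windows, against 1.63% of all 32851 windows and 1.37% of those of tested genes. Those were the windows of Actg1, lower in both knockouts, and Arpc4, higher in both. In Actg1 the match was CCATATATGG from -90 to -81, and in Arpc4 it was CCTAATTTGG from -250 to -241. The stretches below show these matches beside upstream sequence of Cfl1 and Pfn1, whose levels stood opposite to Actg1. The Arpc4 stretch lies in an exon of Tada3, and those of Actg1 and Pfn1 overlap exons of 0610009L18Rik and Gm12319. The Pfn1 stretch also lies within the Pfn1 coordinates given above. Its window was therefore set from a transcript start inside them, not from their 5′ end. A match is a description, not a binding site. Capitals mark the CArG box and GGGCGG runs on either strand, and each stretch is written 5′ to 3′ on the gene's strand: Actg1 at chr11:120348556-120348745 (minus strand), Arpc4 at chr6:113377863-113377892 (plus), Cfl1 at chr19:5490205-5490404 (plus) and Pfn1 at chr11:70654701-70654900 (minus).
Actg1: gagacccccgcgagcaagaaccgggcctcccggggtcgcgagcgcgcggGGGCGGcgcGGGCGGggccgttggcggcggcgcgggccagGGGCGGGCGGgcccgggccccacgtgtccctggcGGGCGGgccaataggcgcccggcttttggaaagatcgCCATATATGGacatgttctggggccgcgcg
Arpc4: CCTAATTTGGtgcccaacctgaggtcgggc
Cfl1: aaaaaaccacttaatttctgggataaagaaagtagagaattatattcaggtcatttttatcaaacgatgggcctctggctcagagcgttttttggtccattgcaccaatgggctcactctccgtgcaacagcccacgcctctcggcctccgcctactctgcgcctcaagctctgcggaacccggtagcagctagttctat
Pfn1: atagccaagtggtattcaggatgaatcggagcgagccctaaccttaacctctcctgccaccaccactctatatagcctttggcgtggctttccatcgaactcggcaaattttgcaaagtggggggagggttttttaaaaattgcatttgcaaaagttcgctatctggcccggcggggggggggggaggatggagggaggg
The Actg1 stretch is 77.9% G and C, with GGGCGG runs that overlap each other in 1 place, against 49% for Cfl1 and 53% for Pfn1. GGGCGG, the core of the GC box, was present in 8 of the 9 windows, against 61.3% of the windows of tested genes. Pfn1 (from -35 and -27) and Cfl1 (from 10 and 15) were among the 8, with their matches past the end of the stretches shown. The NF-kB site, TATAAA and TGANTCA (the AP-1 element) were in 0 of the 9, where 4.97%, 7.8% and 4.97% of the windows of tested genes held them. GAGGAAG, which holds the GGAA core of ETS factors such as PU.1, was in 1 of the 9, Arpc1b, against 13.7% of those windows. No match within a window says only that these letters are not there.

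Beyond the 10 genes, 152 further genes of the actin system, the other Arp2/3 genes among them, were listed by role, of which 137 were in the table and 102 were tested. None passed limma's moderated test with Benjamini-Hochberg adjustment, as none of all 7823 genes did (0% called in either direction, smallest adjusted p = 0.547). The median log2 fold change of those tested was 0.91 without knockout 1 and 0.70 without knockout 2. Over all genes tested there it was 0.64 and 0.96. At an unadjusted p under 0.05 there were 8 higher and 3 lower of the 102, where 6.07% and 1.62% of all tested genes stood. Both controls were under 1 FPKM for 6 of the 8, the exceptions being Abi1 and Elmo1. The same held for 357 of the 475 higher genes at that threshold among all tested genes. The knockouts were the higher group without overlap in 37 of the 102 and the lower in 13, where 27.8% and 11.4% of all tested genes stood. Counts of the lists by role below are set against the same shares. For 20 of the 37 neither control reached 1 FPKM, a count not made over all genes. After median ratio scaling the counts of 37 and 13 were 22 and 27, and after quantile normalization 24 and 23. The share over all genes was not computed at those scalings. Their median log2 fold change was 0.82, against 0.94 over all tested genes. Among the 25 averaging 100 FPKM or more, 6 lay above and 9 below, with a median of -0.33. Of all genes at that level, 19% lay above and 26.5% below.

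The WASP, WAVE and WASH proteins, which switch on Arp2/3, had 8 of 19 tested genes above both controls and 0 below (median 0.89). The median was 1.37 without knockout 1, 1.66 without control 1, 1.505 without control 2, 2.02 with a pseudocount of 0.1 and -0.09 after quantile normalization, and the single gene averaging 100 FPKM or more, Washc3, stood at -3.42. Abi1, a WAVE complex subunit, read 87.2 and 198 FPKM in the knockouts against 5.09 and 0.52 FPKM in the controls (limma adjusted p = 0.559). Cyfip1, the WAVE subunit that receives the Rac signal, read 75.8 and 172 FPKM in the knockouts against 11.2 and 24.7 FPKM in the controls. Both had knockouts well above controls, whereas Brk1, the smallest WAVE subunit, and Washc3 of the WASH complex had 1 knockout near 0. Brk1 read 206 and 0.59 FPKM in the knockouts and 67.0 and 86.1 FPKM in the controls, and Washc3 read 155 and 0.47 FPKM in the knockouts and 256 and 101 FPKM in the controls.

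Among 13 other tested genes of monomer binding and turnover, 6 lay above and 2 below (median 1.56). The median was 0.87 without knockout 1, 0.13 among genes averaging 5 FPKM or more and -0.46 among those averaging 100 FPKM or more. Twf1, twinfilin, which binds monomers and caps filaments, read 226 and 636 FPKM in the knockouts against 1095 and 1016 FPKM in the controls (limma adjusted p = 0.662). Tmsb10, the paralog of Tmsb4x, read 337 and 459 FPKM in the knockouts against 479 and 611 FPKM in the controls (limma adjusted p = 0.699). In Twf1 and Tmsb10, as in Tmsb4x, the knockouts were the lower group without overlap. Dstn, destrin, a relative of cofilin, lay above both controls like Cfl1, at 130 and 117 FPKM in the knockouts against 82.3 and 44.0 FPKM in the controls (limma adjusted p = 0.698). Cyrib, which binds Rac and restrains its signal to WAVE, read 288 and 250 FPKM in the knockouts and 281 and 213 FPKM in the controls, an overlap.

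Of 14 tested genes of filament capping, formins and Ena/VASP, 3 lay above and 1 below (median 0.11). The median was -0.0019 without knockout 1, 0.07 without knockout 2, 0.77 without control 1, 0.32 without control 2 and -0.46 after median ratio scaling. The barbed-end capping protein genes overlapped between groups: Capza2 read 1364 and 1692 FPKM in the knockouts and 1909 and 1689 FPKM in the controls. Capza1 read 223 and 237 FPKM in the knockouts and 169 and 358 FPKM in the controls, and Capzb read 124 and 89.6 FPKM in the knockouts and 37.9 and 187 FPKM in the controls. Capg, a macrophage capping protein, read 202 and 262 FPKM in the knockouts against 11.6 and 160 FPKM in the controls, with the controls far apart.

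Bundling, crosslinking and membrane-linking proteins had 5 of 17 tested genes above and 3 below (median 0.40). The median was 0.09 without knockout 1, -0.35 without knockout 2, 1.497 without control 1, -0.34 among genes averaging 5 FPKM or more and -0.40 after quantile normalization. Aif1, which encodes the microglial actin-bundling protein IBA1, read 1246 and 1611 FPKM in the knockouts against 2389 and 2318 FPKM in the controls. Marcks, which ties actin to the membrane, read 281 and 440 FPKM in the knockouts against 780 and 949 FPKM in the controls. Both lay below both controls and did not pass (log2 -0.73, limma adjusted p = 0.643 for Aif1, and log2 -1.29, limma adjusted p = 0.639 for Marcks). Lsp1, a leukocyte actin-binding protein, read 116 and 114 FPKM in the knockouts and 85.7 and 250.4 FPKM in the controls. Rdx, the membrane linker radixin, read 69.0 and 0.92 FPKM in the knockouts and 62.2 and 303 FPKM in the controls.

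Of 11 tested myosin and tropomyosin genes, 2 lay above and 4 below (median 0.66), and 3 of the 4 were myosin light chains. The median was 0.99 without knockout 1, -0.41 without knockout 2, -0.22 after median ratio scaling and -0.49 among genes averaging 100 FPKM or more. Myl6 read 813 and 728 FPKM in the knockouts against 1128 and 1027 FPKM in the controls. Myl12a read 569 and 521 FPKM in the knockouts against 937 and 1035 FPKM in the controls. Myl12b read 298 and 429 FPKM in the knockouts against 479 and 527 FPKM in the controls. None of the 3 overlapped between groups and none passed (limma adjusted p = 0.698 for each), and their sign was the same under every scaling. Tpm3, a tropomyosin that coats filaments, lay above both controls at 353 and 562 FPKM in the knockouts against 268 and 298 FPKM in the controls, and its difference turned to -0.22 after median ratio scaling.

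Small GTPases that steer actin, with their regulators, had 10 of 18 tested genes above and 2 below (median 1.40). Quantile normalization gave a median of 0.63, median ratio scaling 0.73, and the genes averaging 100 FPKM or more 0.497. Cdc42, which activates WASP proteins, read 915 and 913 FPKM in the knockouts against 509 and 403 FPKM in the controls (log2 1.01, limma adjusted p = 0.680). Rhoa, which drives contraction, read 249 and 255 FPKM in the knockouts against 257 and 455 FPKM in the controls, so knockout 2 was barely under control 1. Rac1, which activates WAVE, read 148 and 176 FPKM in the knockouts against 107 and 0.86 FPKM in the controls. Arhgdib, the leukocyte inhibitor that holds such GTPases in the cytosol, read 1962 and 2254 FPKM in the knockouts and 2634 and 1722 FPKM in the controls. Cdc42 stood above with tight replicates in the knockouts, Rac1 was near 0 in 1 control, and Arhgdib overlapped. Of the regulators of serum response factor, Mrtfb reached at most 1.75 FPKM and Srf 0.02 FPKM in any library, and neither was tested.

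The profile of the 10 genes averaged over the 4 libraries was nearly flat, since members differed in opposite directions. Centred on 0, it was 0.07 and -0.06 log2 units in the knockouts and -0.08 and 0.07 in the controls, with an SD over members of 0.40 to 0.76. The genes most like it, by root mean square distance over 4 libraries among 1168 candidates averaging 100 FPKM or more, were Tmem59, Prdx5, Atp5mpl, Sdcbp and Npc2, at 0.04 to 0.08 log2 units. Tmem59 read 1314 and 1175 FPKM in the knockouts and 1103 and 1253 FPKM in the controls.

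Some markers of other cells also separated the groups, and others overlapped between them. Of 15 rod markers tested, 12 had knockouts higher without overlap and 0 lower. For this and the marker lists below, the shares of all tested genes were 27.8% and 11.4%. Pdc read 2458 and 2834 FPKM in the knockouts against 750.3 and 937 FPKM in the controls, and Sag read 722 and 572 FPKM in the knockouts against 134 and 268 FPKM in the controls. Gngt1 overlapped, at 1542 and 3890 FPKM in the knockouts and 1005 and 1670 FPKM in the controls. Bipolar, amacrine and ganglion cell markers summed to 1088 and 1118 FPKM in the knockouts and 18.8 and 345 FPKM in the controls, with 6 of 7 tested above and 0 below. Pcp2, Snap25 and Nefl led by level, and Pou4f1 was at 0 throughout. Nefl overlapped, at 47.5 and 2.46 FPKM in the knockouts and 0.22 and 26.5 FPKM in the controls. Monocyte markers summed to 190.2 and 240.5 FPKM in the knockouts and 821 and 1654 FPKM in the controls, with 2 of 6 tested below and 0 above. Ms4a4c, Ccr2 and Plac8 led these, with Ccr2 at 1.81 and 0.59 FPKM in the knockouts against 316 and 151 FPKM in the controls. Plac8 was high in control 2 alone, at 173 FPKM against 0.13 FPKM in control 1, and overlapped. F13a1, also on the monocyte list, went the other way, at 118.89 FPKM in knockout 2 and at most 0.18 FPKM in any other library. S100a4 overlapped, at 49.75 and 0.24 FPKM in the knockouts and 88.25 and 0 FPKM in the controls. The dendritic cell marker Cd209a read 1.19 and 2.10 FPKM in the knockouts against 503 and 886 FPKM in the controls, while Itgax read 0.06 and 0.03 FPKM in the knockouts against 0.12 and 3.71 FPKM in the controls, Ccr7 stayed under 1 FPKM and Xcr1 was at 0. Perivascular macrophage markers summed to 189.8 and 840.1 FPKM in the knockouts and 2223 and 1752 FPKM in the controls, with 2 of 8 tested below and 0 above and Siglec1 at 0 throughout. Ms4a7, the highest of them, read 189 and 155 FPKM in the knockouts against 1614 and 1547 FPKM in the controls, ahead of Pf4 and Clec12a. Others of this list were high in knockout 2 alone: F13a1, Cbr2, Lyve1 and Stab1 read 118.89, 96.66, 61.76 and 6.64 FPKM there and at most 0.34 FPKM in any other library, and the list's median log2 fold change was 0.44. Müller glia and astrocyte markers summed to 10214 and 2275 FPKM in the knockouts and 5084 and 5371 FPKM in the controls, most of it Apoe, which microglia also express, with Glul and Clu next, and 1 of 7 tested above and 0 below. Endothelial markers summed to 15.9 and 8.32 FPKM in the knockouts and 0.04 and 0.50 FPKM in the controls, nearly all Flt1, while Cdh5 and Kdr stayed under 1 FPKM. Pericyte and smooth muscle markers summed to 156 and 29.4 FPKM in the knockouts and 0.21 and 1.93 FPKM in the controls, led by Vtn, Rgs5 and Pdgfrb. Rgs5 was high in knockout 1 alone, at 60.2 FPKM against 0.10 FPKM in knockout 2. Pdgfrb overlapped, at 0.09 and 0 FPKM in the knockouts and 0.03 and 1.71 FPKM in the controls. The part of RNA from these other cells in the differences of the cytoskeleton genes was not tested.

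The differences of the 10 genes were compared across settings. Actb and Actg1 stayed below 0 and Cfl1 and Pfn1 above 0 in each of the alternatives, from -2.56 to -1.14 for Actb, -1.67 to -0.59 for Actg1, 0.64 to 2.03 for Cfl1 and 0.05 to 1.497 for Pfn1. Tmsb4x, Arpc1b, Arpc2, Arpc3, Arpc4 and Arpc5 each changed sign in at least 1 of them. For Actb, Actg1, Cfl1 and Pfn1, whose groups did not overlap, leaving out a library could not turn the sign. After median ratio scaling the knockouts were the lower group without overlap in 6 of the 10 and the higher in 1. The share over all genes was not computed there, and the median over all tested genes was 0.32 instead of 0.94.

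**Figure D5:**
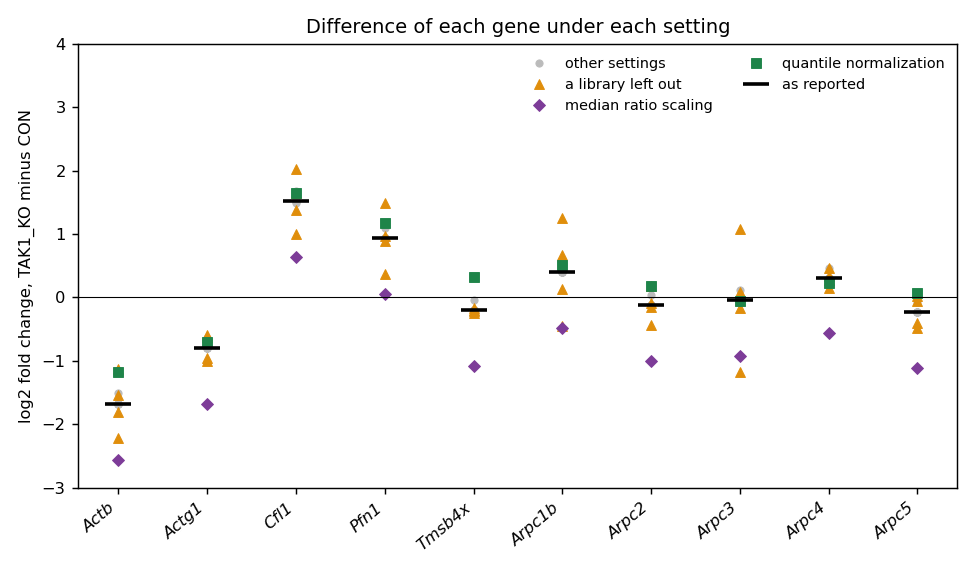
Log2 fold change of each gene, knockout minus control, as reported (black bars) and under each alternative: a library left out (orange triangles), median ratio scaling (purple diamonds), quantile normalization (green squares) and other settings (grey). Actb and Actg1 stay below 0 and Cfl1 and Pfn1 above 0, whereas the other 6 genes cross 0 in at least 1 setting.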

How the data were processed

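Per the labels' protocols, cDNA of the SMART-Seq type was made from sorted cells, amplified by PCR and made into libraries with a transposon-based method. The authors deposited 1 FPKM value per gene and library, rounded to 2 decimals, per the file headers. Per the submitters' processing notes, mm10 was the build. For the aligner, annotation and counting, and whether counting used strand, the answer is not given in the sources used here. Depth is unknown, so no counting intervals were made.

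Columns were matched to samples by title. Differences were fitted on log2(FPKM + 1), which understates those of low genes, for the 7823 genes averaging at least 1 FPKM, with limma 3.58.1 in R 4.3.3 (trended variance, 2 residual and 3.99 prior degrees of freedom) and Benjamini-Hochberg adjustment over all of them at 0.05. The code was tested on simulated data. An exact permutation test of 2 against 2 cannot go below p = 0.333. Coordinates came from RefSeq (GRCm38.p6), where 15470 of 15586 identifiers matched. Pseudogene matches used blastn 2.17.0 on GENCODE transcripts, and figures matplotlib 3.10.9. Exons of Cfl1 and Arpc1b overlap antisense Snx32 and Pdap1, at 0 to 1.08 and 0.67 to 7.39 FPKM. Arpc4 overlaps Ttll3, not analysed here.

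The members and lists were chosen with earlier results of these data known. Genes named were the 10 members, the 4 highest tested genes of each list, the 3 highest markers per cell type (some marker results are not reported here), and the 5 genes nearest in profile. Map3k7, Elmo1, Arpc1a, F13a1, S100a4, Cbr2, Lyve1, Stab1 and the marker genes at or near 0 were named after their values were seen. Alternatives were other pseudocounts, filters, scalings, variance models, omission of each library, a block for the replicate number, and an adjusted p under 0.1.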

Additional observations from a re-analysis of the deposited data

How the results depend on the processing

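With 2 libraries a group and no depth, differences smaller than the gap between replicates could not be resolved, and many genes were near 0 in 1 library. The number of all genes called by limma, 0 higher and 0 lower, became 2 and 3 after quantile normalization. Leaving out each library in turn gave 0 to 1306 higher and 0 to 5 lower: 697 and 4 without knockout 1, 1306 and 5 without knockout 2, and 0 and 0 without either control. In these fits the lone library is assumed to vary like the other group. The further cytoskeleton genes gave 0 to 14 higher (9 without knockout 1 and 14 without knockout 2) and 0 lower. No shared deviation of same-numbered libraries was found (r = 0.017 between their deviations across genes). With many genes near 0 in 1 library, this does not settle whether the numbers pair the libraries. The fit with the replicate number as a block called 15 higher and 20 lower of all genes, with 1 further cytoskeleton gene, Actr2, among the lower.

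The median log2 fold change of the 10 genes, -0.08, moved to -0.97 by median ratio scaling, to 0.20 by quantile normalization, and was -0.30 to 0.26 with each library left out (-0.30 without control 1 and 0.26 without control 2). The count below both controls, 3, was 6 after median ratio scaling and 2 after rescaling to the same sum or quantile normalization. With each library left out it was 3 to 6 (6 without control 1), with 1 library left in a group. The share of all genes below was not computed at these settings. The median of the further cytoskeleton genes, 0.82, was -0.33 among genes averaging 100 FPKM or more, 0.15 after median ratio scaling and -0.014 after quantile normalization. The members' share of summed FPKM, knockout minus control, was -1.10 percentage points, 0.49 after quantile normalization, -0.54 without control 2 and -1.66 without control 1. The all-gene median of 0.94 was 0.32 after median ratio scaling and 0.12 after quantile normalization, and the share of higher genes at an unadjusted p under 0.05, 78.9%, was 42.7% and 60.1% there and 39.8% among genes averaging 100 FPKM or more. The causes were not tested.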
